A study of Drosophila melanogaster with 2 samples.

Results

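The genes described here are the 139 long noncoding RNA genes that were well counted in Drosophila melanogaster Kc167 cells, out of 17807 genes in the expression table. They are the rows whose FlyBase symbol begins with asRNA: or lncRNA: and whose raw count was at least 100 in each of 2 libraries. The measured counts therefore chose them, and their counts and TPM values (a count divided by transcript length and scaled so that all genes of a library add up to the same total) are given as a description with no test. Of 2401 genes with such a symbol, 62 asRNA: genes and 77 lncRNA: genes passed, which is 5.79%. Across the whole table, 7195 genes or 40.4% reached the same minimum.

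Kc167 is a cell line of embryonic origin with features of fly blood cells. The study mapped the subunits of TFIID, the general factor that recognizes core promoters. Both libraries come from that 1 condition: Kc167 cells that had grown at 25 °C and then spent 1 h in 2% DMSO, the solvent of the study's inhibitor, with no other agent and no genetic change. They are called replicate 1 and replicate 2, and the labels do not say whether they come from separate cultures, so the spread between them may be technical. The libraries were made with a strand-specific kit after poly(A) selection and hold 33436865 and 31721648 strand-matched read pairs on genes, out of 42634176 and 40173312 pairs in all. At this depth 3 counts, the limit that a count of 0 allows, equal 0.0897 and 0.0946 CPM, a gene's counts scaled to the library total. The 9 blood cell marker genes examined (among them Hml, srp and Col4a1) had 129 to 27666 counts per library, the 10 testis markers 0 to 6, and the 4 neuronal markers 5 to 278, the highest being elav.

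Long noncoding RNAs are transcripts of RNA polymerase II that are not translated into a long protein, and most are capped, and many are spliced and polyadenylated like an mRNA. Some act as RNA molecules, such as the roX RNAs that carry the dosage compensation complex of male flies, some are the primary transcripts of microRNAs or small nucleolar RNAs, and for many no function is known. FlyBase gives the prefix asRNA: to a gene that is antisense, that is, whose exons lie over those of another gene on the opposite strand. A read from such a place can be given to a gene only when its strand is known, so strand-specific counting bears directly on these genes. Poly(A) selection leaves out transcripts without a poly(A) tail, and the libraries carry no information about them.

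The members took a small and very uneven share of the reads. In replicate 1 they held 180478 counts, which is 0.540% of all gene counts, and in replicate 2 they held 170260, which is 0.537%. Of the counts on the whole set of 2401 genes, 93.1% and 93.3% fell on these 139. A total of 1188 genes with such a symbol, or 49.5%, had no count in either library, and a further 347 had none in 1 of them. lncRNA:CR42862 alone held 46.3% of the members' counts, the 10 best-counted members held 72.8%, and the 50 best-counted held 90.3%. Without lncRNA:CR42862 the share of gene counts on the members was 0.291% in replicate 1 and 0.287% in replicate 2.

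Per base, the members lay below the other genes that reached the same count minimum. The median deposited TPM was 18.9 over the 139 members, with quartiles of 10.7 and 36.5, against 42.9 over the 7015 other genes with an annotated length. The deposited length adds up the exons of all transcripts. Its median was 1.86 times the exonic length for the other genes and 1.00 times for the members. With each exonic base counted 1 time, the median TPM was 14.5 for the members and 47.4 for the other genes. The asRNA: members had a median of 17.4 TPM and a highest value of 146 TPM, and the lncRNA: members a median of 23.5 TPM and a highest value of 1787 TPM. A TPM of at least 100 was reached by 1 asRNA: gene and 15 lncRNA: genes, 11.5% of the members, against 23.8% of the other genes. The members were also shorter and simpler in structure, with a median exonic length of 1087 bases against 2165 bases. A single exon was annotated for 61 of them, or 43.9%, against 9.01% of the other genes. These are descriptions of genes chosen by their counts.

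**Figure D1:**
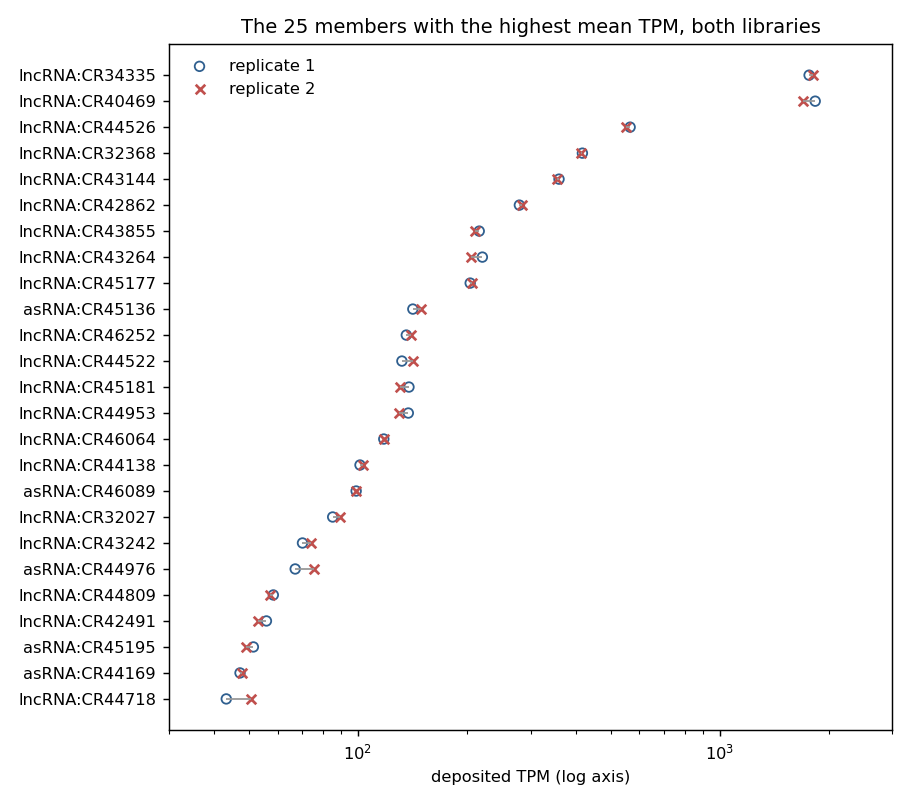
Deposited TPM of the 25 members with the highest mean, on a log axis, with an open circle for replicate 1, a cross for replicate 2 and a grey line between them. lncRNA:CR34335 and lncRNA:CR40469 stand at the top with 1765 and 1809 TPM and with 1835 and 1695 TPM, lncRNA:CR44526 is the next at 565 and 552 TPM, and 5 of the 25 are asRNA: genes.

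The most abundant members per base were short, unnamed lncRNA: genes that lie apart from annotated exons of the opposite strand. lncRNA:CR34335 had 11916 counts in replicate 1 and 11448 in replicate 2, which is 1765 and 1809 TPM. It is a single exon of 361 bases on the minus strand of the X chromosome (X:3545750-3546110, dm6), inside an intron of DIP-alpha, a cell surface immunoglobulin protein of neurons. DIP-alpha itself, transcribed in the same direction, had 1289 and 1161 counts, or 7.38 and 7.09 TPM. Reads from an unspliced DIP-alpha transcript and from the lncRNA would be counted alike at that place, and their parts cannot be told apart here.

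lncRNA:CR40469, a single exon of 214 bases near the start of the X chromosome assembly (X:122493-122706), had 4346 and 3764 counts, or 1835 and 1695 TPM. These 2 genes exchanged places between the libraries, so their order by deposited TPM is not fixed. The deposited length of lncRNA:CR34335 is 610 bases, which sums 2 transcripts. With each exonic base counted 1 time, lncRNA:CR34335 had 1910 and 1944 TPM, above lncRNA:CR40469 with 1175 and 1078 TPM. By deposited TPM, lncRNA:CR44526 on chromosome 3L (3L:8692703-8693191) followed with 3059 and 2800 counts, or 565 and 552 TPM, well below both in either library. lncRNA:CR32368 had 417 and 414 TPM and lncRNA:CR43144 had 360 and 354 TPM, and these did not overlap with their neighbours in the order. lncRNA:CR32368 starts 317 bp from the start of Tmem43, a membrane protein gene on the other strand, which had 134 and 127 TPM.

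Further down the order the libraries overlapped. lncRNA:CR43855, which lies across the opposite strand of Sema1a (a semaphorin of axon guidance) without sharing exonic bases, had 216 and 211 TPM. lncRNA:CR43264 had 221 and 205 TPM and lncRNA:CR45177 had 204 and 207 TPM, so lncRNA:CR43855 lies above lncRNA:CR45177 in both libraries and lncRNA:CR43264 overlaps with both. The next were asRNA:CR45136 with 142 and 150 TPM, lncRNA:CR46252 with 136 and 141 TPM, and lncRNA:CR44522 with 132 and 142 TPM. asRNA:CR45136 lies above both of the others in each library, and the values of lncRNA:CR44522 span those of lncRNA:CR46252. asRNA:CR45136 is the antisense member with the highest TPM.

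By counts the order is a different one, since TPM depends on the length used. lncRNA:CR42862, with 83166 and 79350 counts, was the best-counted member by far and held 2487 and 2501 CPM. It spans 3L:224106-230964 with 3 exons and 5 annotated transcripts. The deposited length of 26897 bases is 4.90 times its 5485 exonic bases, because that column adds up the exons of all transcripts. Its deposited TPM was therefore 279 and 284 (rank 6), while the mean TPM recomputed with each exonic base counted 1 time was 882 (rank 3).

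The length used moved every member. Of the 139, 95 have a deposited length equal to their exonic length, and 96 have 1 annotated transcript. With exonic lengths, TPM rose for 33 members and fell for 106. Those with an equal length fell by 0.65 on the log2 scale, because TPM values share 1 total. The median of all genes with 100 counts in each library moved by 0.24. The 12 members with the highest TPM stayed the same 12 genes, and lncRNA:CR34335 remained first.

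Of the members with a name beyond a CR number, lncRNA:Hsromega was the best counted. This is the hsr-omega gene of the heat shock locus at 93D, whose nuclear RNA organizes the omega speckles that hold hnRNP proteins. The gene had 9617 and 8644 counts, rank 3 among the members by counts, with 288 and 273 CPM. Its deposited length of 56186 bases sums 7 transcripts over 21710 exonic bases (3R:21296127-21317836), and its deposited TPM was 15.5 and 14.8, or 25.0 as the mean with exonic length. The labels name no heat shock of these cells. The replicate 1 to replicate 2 difference in CPM was 0.08 on the log2 scale with a counting standard error of 0.02, one of the larger differences among the members relative to counting error.

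lncRNA:noe had 414 and 336 counts, or 34.7 and 30.1 TPM. It lies within blot, a transporter gene of the same strand with 582 and 575 counts, or 3.14 and 3.31 TPM. lncRNA:dntRL had 1145 and 1114 counts, or 38.8 and 40.2 TPM, and lncRNA:mimi had 627 and 639 counts, or 21.6 and 23.5 TPM. lncRNA:Irar had 259 and 233 counts, or 17.1 and 16.4 TPM, and lies within InR, the insulin receptor gene, on its opposite strand and without shared exonic bases. lncRNA:alphagamma-element:CR32865, from the repeat of the Hsp70 heat shock locus at 87C, had 157 and 156 counts, or 10.5 and 11.1 TPM. Its family has near-identical copies in the genome, and only uniquely placed reads are counted, so its value is uncertain. Among these 5 genes and lncRNA:Hsromega the opposite-strand share of reads was between 1.09% and 7.17%.

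A few members contain the gene of a small RNA. Of the 139, 5 hold an annotated microRNA or snoRNA gene on their own strand, all 5 of them lncRNA: genes. That is 3.60% of the members, against 2.87% of all genes with 100 counts. lncRNA:CR43334, the long primary transcript of the bantam microRNA, a growth and survival regulator, had 1730 and 1640 counts over 15466 exonic bases, or 4.90 and 4.95 TPM. lncRNA:CR43857, which contains mir-275, had 148 and 147 counts, or 5.98 and 6.33 TPM. lncRNA:CR44206, which contains mir-184, had 212 and 193 counts, or 4.46 and 4.33 TPM. lncRNA:CR42491 holds a snoRNA gene within RpL22, a ribosomal protein gene of the same strand, and shares 50.5% of its exonic bases with RpL22. It had 462 and 411 counts, or 55.9 and 53.0 TPM, against 9123 and 9514 counts for RpL22. The remaining host was lncRNA:Hsromega, with mir-4951. Mature small RNAs are too short for these libraries, so the values concern the host transcripts. Hosts of snoRNAs that FlyBase calls Uhg carry no lncRNA: prefix and are not members; 6 of the 7 reached 10 counts in both libraries, and Uhg1 had 375 and 378 TPM.

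Most genes of a list with a known role were under the count minimum, as were most lncRNA: and asRNA: genes. Of a list of 16 genes with a known role, 14 were found in the table and 2 were members, lncRNA:Hsromega and lncRNA:noe. Among the 14, pgc and IBIN carry neither prefix here, so they could not be members at any count. Of all 2401 genes with either prefix, 5.79% were members. lncRNA:roX1 had 6 counts in each library and lncRNA:roX2 had 16 in each. lncRNA:bxd, lncRNA:iab8, lncRNA:CRG and lncRNA:yar had 0 in both libraries, which allows up to 3 counts each. lncRNA:cherub had 4 and 8 counts, lncRNA:let7C had 1 and 1, lncRNA:sphinx had 2 and 1, lncRNA:iab4 had 0 and 2, pgc had 2 and 2, and IBIN had 2 and 0.

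The count minimum of 100 cut through a dense range of genes. Just inside it were lncRNA:CR45962 with 100 and 132 counts, lncRNA:CR43963 with 111 and 100, lncRNA:CR45409 with 104 and 101, and asRNA:CR44961 with 111 and 102. Just outside were lncRNA:CR44135 with 111 and 98 counts, lncRNA:CR43942 with 133 and 97, asRNA:CR45281 with 106 and 94, and lncRNA:CR32636 with 94 and 108. The counts on the 2 sides of the minimum overlapped: lncRNA:CR43942 had more counts in replicate 1 than any of those 4 members. In all, 64 genes had a lower count of 50 to 99.

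Where the genes lie on the genome differed between the prefixes in the way the naming implies. All 62 asRNA: members have exonic bases over exons of an opposite-strand gene, and in each case the gene with the most shared bases is protein-coding. Of the 77 lncRNA: members, 15 have such overlap, 14 lie inside or across an opposite-strand gene without sharing exonic bases, 13 overlap a gene of the same strand alone, and 35 overlap no gene. Over all 7154 annotated genes with 100 counts in each library, 38.4% share exonic bases with the opposite strand, against 55.4% of the members. A median of 77.8% of the exonic bases of an asRNA: member lay over opposite-strand exons.

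Some members start close to, and face away from, a neighbouring gene. The start of a non-overlapping opposite-strand gene lay within 1000 bp upstream for 26 asRNA: members and 18 lncRNA: members, 44 or 31.7% in all, against 52.4% of all genes with 100 counts. No test was made of that difference. The neighbour had the higher deposited TPM in both libraries for 26 of the 44 and the member for 15. This tally was not repeated with exonic lengths. lncRNA:CR43242 had 70.3 and 74.0 TPM beside Spf45, a splicing factor, with 66.9 and 68.0 TPM. lncRNA:CR44809 had 58.4 and 57.1 TPM beside Clamp, a zinc finger protein of dosage compensation, with 90.9 and 91.3 TPM. lncRNA:CR32582 had 17.4 and 17.0 TPM beside Chc, the clathrin heavy chain, with 107 and 111 TPM. asRNA:CR43481 had 4.92 and 5.81 TPM, 733 bp from Hsp26, a small heat shock protein, with 2201 and 2242 TPM. The lncRNA:CR43685 pair went the other way, with 38.3 and 40.7 TPM for the member and 2.89 and 2.92 TPM for e(y)2b. These 5 pairs were chosen after their values were seen.

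Some members lie next to each other. Within 5000 bp there were 8 pairs of neighbouring members, made of 14 genes. lncRNA:CR46252 and lncRNA:CR45181 overlap tail to tail by 303 bp on opposite strands of proximal 3L, and had 136 and 141 TPM against 138 and 131 TPM. At both genes many reads lay on the other strand: 40.6% of the reads at lncRNA:CR46252 and 40.1% at lncRNA:CR45181 were on the opposite strand, the highest shares among the lncRNA: members. lncRNA:CR45181 starts 476 bp from vtd, the Rad21 subunit of cohesin, which had 134 and 135 TPM. lncRNA:CR43423 lies wholly over the bantam host lncRNA:CR43334 on the other strand, with 164 and 118 counts. asRNA:CR45140, asRNA:CR43469, asRNA:CR43468 and asRNA:CR45141 stand in a row on 2R around AspRS and Balat. Beyond 25 Mb of 3L, near the centromere, there were 5 lncRNA: members, of 6 genes with such a symbol in that stretch. That is 3.60% of the members, against 0.143% of the other genes with 100 counts and 0.250% of all 2401 genes with either prefix. The overlapping lncRNA:CR46252 and lncRNA:CR45181 are among the 5, and no test was made.

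The strand columns of the per-gene counts gave each gene's read pairs on its own strand, on the opposite strand, and irrespective of strand. The own-strand column equalled the count in the expression table for all 17807 genes in both libraries. For each member the opposite-strand share is the opposite-strand count divided by the sum of both strand counts. Its median over the members was 7.80% in replicate 1 and 8.13% in replicate 2, and 8.20% with both libraries summed, against 1.33% over the other genes with 100 counts. For the asRNA: members the median was 44.2%, with a range of 0.879% to 99.5%. For the lncRNA: members it was 2.74%, with a range of 0.456% to 40.6%.

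**Figure D2:**
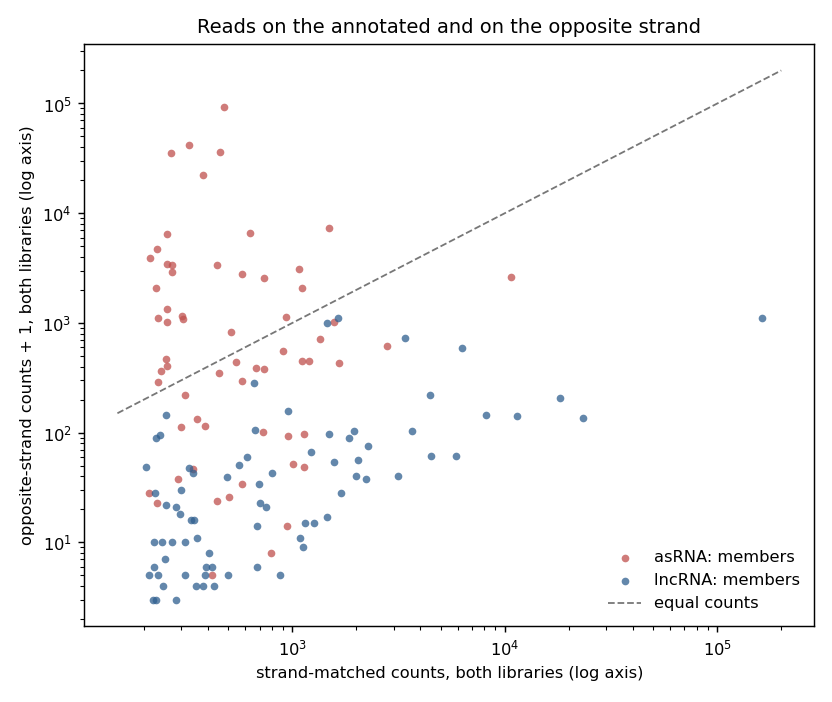
Strand-matched counts (x axis) and opposite-strand counts plus 1 (y axis) of the 139 members, both libraries summed, on log axes, with asRNA: members in red and lncRNA: members in blue. The 30 points above the dashed line of equal counts are all asRNA: genes, and no lncRNA: gene is above it.

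Over 50% of the reads lay on the opposite strand at 30 members, all of them asRNA: genes, and the count was 30 in each library taken alone. That is 21.6% of the members, while 1.80% of all genes with 100 counts in each library passed the same limit. The share exceeded 90% at 13 members, or 9.35%, against 0.0428% of the other genes with 100 counts.

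The most extreme was asRNA:CR45874, which lies over RpS9, a protein of the small ribosomal subunit, on chromosome 3L (3L:9510017-9510889). It had 256 and 218 counts on its own strand, against 48515 and 45138 on the opposite strand, a share of 99.5% in each library (exact 95% binomial interval 99.4% to 99.5% in replicate 1). RpS9 as a whole gene had 67476 and 62460 counts, and it shares 512 exonic bases with the antisense gene. asRNA:CR45141, over AspRS (aspartyl-tRNA synthetase), had 137 and 130 counts on its own strand, against 18018 and 17116, a share of 99.2%. asRNA:CR45604, a single exon of 5913 bases across CG2061, CG2076 and Vago, had 162 and 163, against 21310 and 20634, also 99.2%. asRNA:CR45926, over Nap1, a histone chaperone, had 239 and 217, against 18536 and 17614, or 98.8%. asRNA:CR44962, over Karl, had 187 and 192, against 11260 and 10805, or 98.3%.

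At these 5 genes the own-strand reads were as few as reads on the wrong strand elsewhere. A total of 2471 protein-coding genes reached 1000 counts in both libraries and overlap no annotated gene, and there a median of 1.03% of the reads lay on the strand without an annotated gene, and the 95th percentile was 2.99%. The own-strand share was 0.504% at asRNA:CR45874, 0.754% at asRNA:CR45141, 0.769% at asRNA:CR45604, 1.25% at asRNA:CR45926 and 1.69% at asRNA:CR44962. These are the 5 members at or below that percentile, and 3 of them are at or below the median. How many of their counts are reads of the partner placed on the wrong strand was not tested. The other 134 members had a larger own-strand share.

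The antisense members fell into unlike kinds by their partner, the gene with the most shared exonic bases. For 31 of 62 the partner reached 1000 counts in both libraries, for 18 it stayed under 100 in both, and for 13 it lay between. The partner had the higher count in both libraries for 34 and the member for 27. These 27 include the 18 with a partner under 100 counts, an order that the count minimum of the members fixed in advance. asRNA:CR44119, over SLC5A11, had 302 counts against 289 in replicate 1 and 278 against 278 in replicate 2. Most members named here as examples of these kinds were chosen after their values were seen, to cover the range.

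The 18 antisense members with a partner under 100 counts had 105 to 847 counts per library and a median opposite-strand share of 8.77%. The minimum for members and the limit for partners largely fixed in advance that the share would be under 50%, unless another gene adds reads. asRNA:CR45714 had 236 and 184 counts over Hayan, a serine protease of the melanization response, which had 2 counts in each library. asRNA:CR45171 had 395 and 394 counts over Cpr67Fb, a cuticle protein, with 4 and 3 counts. asRNA:CR46029, a single exon of 7622 bases, had 596 and 538 counts over Gyc89Db, an atypical guanylyl cyclase, with 5 and 8 counts. asRNA:CR43866 had 497 and 444 counts over Gal, a beta-galactosidase, with 14 and 11 counts.

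asRNA:CR43467 had 125 and 106 counts over Or46a, an odorant receptor, with 11 and 10. asRNA:CR43257 had 379 and 351 counts over ETH, which encodes ecdysis triggering hormone, with 41 and 38. asRNA:CR44169 had 847 and 804 counts over serpin genes, of which Spn42Db had 62 and 50. asRNA:CR45195 had 506 and 452 counts over Sodh2, a sorbitol dehydrogenase, with 49 and 62. Of the lncRNA: members, lncRNA:CR45176 had 114 and 115 counts over Hpd, an enzyme of tyrosine breakdown, with 4 and 8, and lncRNA:CR45225 had 160 and 195 counts over Lgr3, a relaxin-family receptor, with 8 and 5.

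asRNA:CR42871 was an exception in this group, with 267 and 245 counts and an opposite-strand share of 61.8%. Its partner by shared bases, CG6661, had 1 and 7 counts, but its exons also lie over CG6650. The partner named here need not be the only gene on the other strand. For example, asRNA:CR44169 had 216 and 215 opposite-strand counts, more than the 62 and 50 of Spn42Db, and also lies across CG9447 and Spn42Da.

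The 31 antisense members with a partner of at least 1000 counts had a median opposite-strand share of 82.9%, and 24 of them were above 50%. Opposite-strand reads and partner counts come in part from the same bases, so the grouping itself fixed part of the difference between these groups. asRNA:CR45126 lies on chromosome 4 over Taf3, a TAF subunit of TFIID, and had 298 and 279 counts, against 5233 and 4944 for Taf3. Its opposite-strand share was 83.2% in replicate 1 (exact 95% interval 81.4% to 84.9%) and 82.7% in replicate 2. asRNA:CR42254 had 691 and 659 counts over BEAF-32, an insulator protein, with 2908 and 2740. asRNA:CR43933 had 159 and 113 counts over Hr78, a nuclear receptor, with 2574 and 2466. asRNA:CR46135 had 132 and 124 counts over Atu, the Leo1 subunit of the Paf1 elongation complex, with 3237 and 3156, and a share of 96.2%.

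gce, a receptor for juvenile hormone, is the partner of 2 members, asRNA:CR44429 with 192 and 162 counts and asRNA:CR44961 with 111 and 102 counts, while gce had 3899 and 3592. asRNA:CR43944 had 784 and 710 counts over fbl, a pantothenate kinase, with 5434 and 5135, and a share of 82.9%. asRNA:CR44989 had 136 and 121 counts over mEFG1, a mitochondrial elongation factor, with 2484 and 2477. asRNA:CR45164 had 117 counts in each library over Vps11, a subunit of vesicle tethering complexes, with 1462 and 1206. asRNA:CR43957 and asRNA:CR44029 lie with asRNA:CR45126 on the small chromosome 4, over ci, the transcription factor of Hedgehog signalling, and unc-13, a synaptic vesicle factor.

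asRNA:CR45136, on 2R (2R:10853546-10854495), had 1394 and 1381 counts and 142 and 150 TPM, over CG30015 with 31075 and 29685 counts. Its opposite-strand count was 310 and 306, a share of 18.2%, although 61.1% of its exonic bases lie over CG30015 exons. asRNA:CR46089 was the best-counted antisense member, with 5548 and 5195 counts over 5069 exonic bases, or 98.9 and 98.8 TPM. It lies over Ctns, the lysosomal cystine transporter, with 465 and 472 counts, and over p53, and its opposite-strand share was 19.5%.

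**Figure D3:**
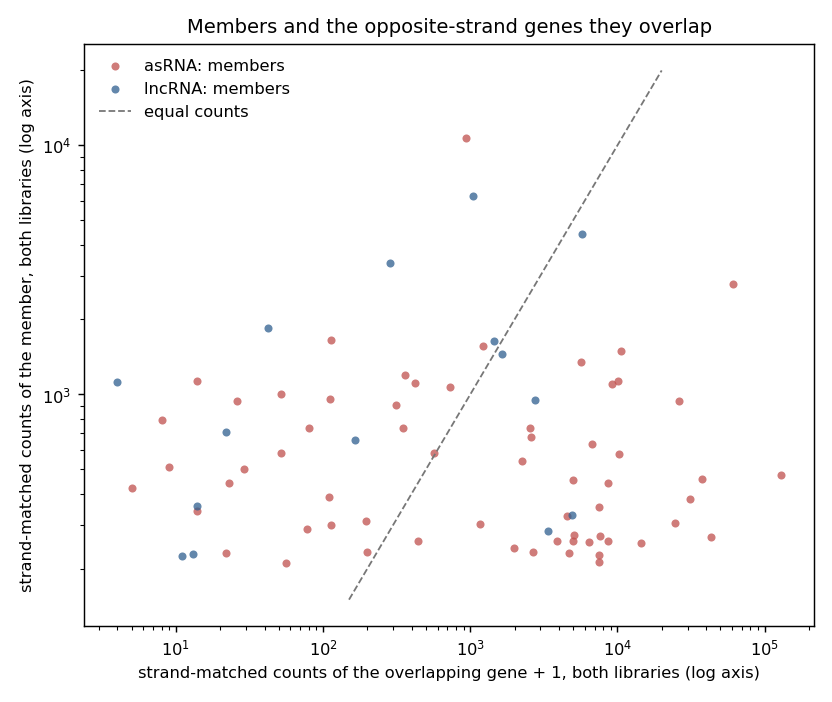
Strand-matched counts of the opposite-strand gene with the most shared exonic bases plus 1 (x axis) and of the member (y axis), both libraries summed, on log axes, for the 62 asRNA: members in red and the 15 lncRNA: members with exonic overlap in blue. The partners cover a far wider range than the members, which the rule held to at least 100 counts in each library. No such minimum applied to the partners. The asRNA: members lie between 211 and 10743 counts.

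Across the 77 members with exonic overlap, Pearson's r between the opposite-strand count and the partner's count was 0.79 and Spearman's rho 0.76, on log2 of count plus 1. These are descriptions over genes of the same libraries, which are not independent, and the opposite-strand reads and the partner's counts come in part from the same bases.

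Of the 77 lncRNA: members, 53 or 68.8% had an opposite-strand share under 5%, against 83.3% of all genes with 100 counts. Beside the pair on 3L, lncRNA:CR44662 had 30.3% over lncRNA:CR44661, and lncRNA:CR43334 had 17.7%. lncRNA:CR43817 overlaps no annotated gene, and yet 70 and 75 reads lay on its opposite strand against 152 and 103 on its own, a share of 31.5% and 42.1%. lncRNA:CR44809 with 13.6% and lncRNA:CR45039 with 11.0% likewise overlap no annotated gene. These 3 were chosen after their values were seen.

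How many of the reads on both strands at a member are kept without strand information followed its overlap. The unstranded column leaves out every pair that touches exons of more than 1 gene on either strand. Set against the sum of both strand columns, the unstranded count of the asRNA: members had a median of 1.26%, and that of the lncRNA: members a median of 100%. Opposite-strand reads are part of this share, so it does not say how many own-strand reads are kept. The 62 members with no exonic overlap kept 98.0% to 100%. The 38 members with over 75% of their exonic bases under overlap kept 0% to 10.3%, with a median of 0.0313%. Over the 139 members Pearson's r between the exonic overlap and the share kept was -0.96, and over the 77 with any overlap it was -0.86. These points share the annotation that also defines the column.

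**Figure D4:**
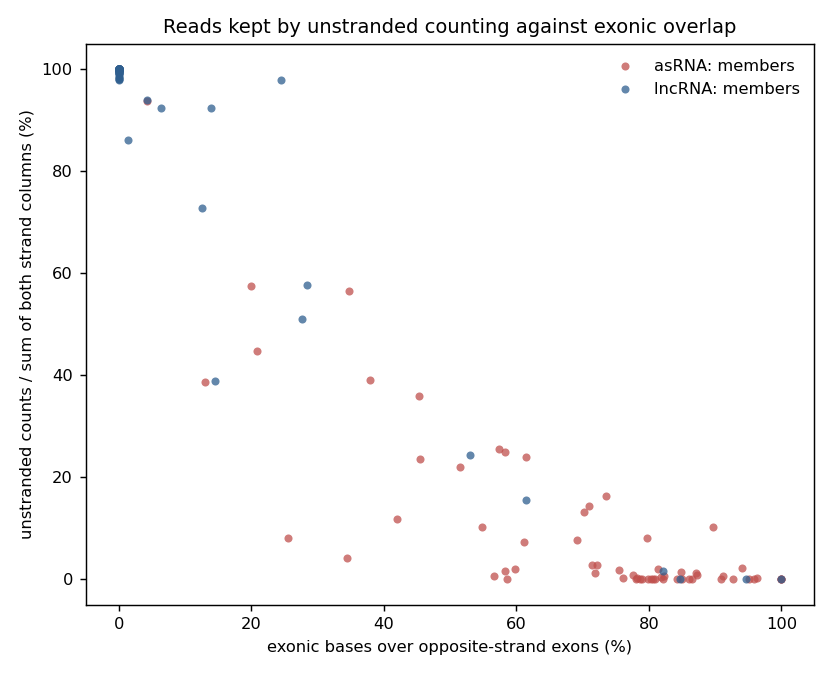
Share of a member's exonic bases that lie over opposite-strand exons (x axis, percent) and its unstranded count as a percentage of the sum of both strand columns (y axis, both libraries summed), with asRNA: members in red and lncRNA: members in blue. Members without overlap sit at 98.0% or above, and most members with over 75% overlap sit near 0.

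In the unstranded column 15 members had 0 counts in both libraries, 12 asRNA: and 3 lncRNA: genes, which is 10.8% of the members against 0.699% of all genes with 100 counts. Among them was asRNA:CR44976, over CG17660, with 537 and 567 own-strand counts. asRNA:CR45926, asRNA:CR45195, asRNA:CR44169 and asRNA:CR45714 were others. lncRNA:CR43423, lncRNA:CR45176 and lncRNA:CR45225 were the 3 lncRNA: genes. With the minimum of 100 applied to the unstranded column, 97 genes would pass, of which 84 are members. Of the 55 members lost, 51 are asRNA: genes. Of the 13 genes gained, 1 is an asRNA: gene and 12 are lncRNA: genes.

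The libraries agreed closely at most members. The log2 ratio of CPM, replicate 1 over replicate 2, had a median of 0.00 and a median size of 0.08, with 70 members higher in replicate 1 and 69 in replicate 2. The chi-square per degree of freedom, whose average (not median) is 1 for counting noise alone, averaged 1.54 over the members with a median of 0.50. Over the other genes with 100 counts the average was 5.04, the median 0.68 and the median size of the log2 ratio 0.04. Those genes had more counts, with a median of 3543 against 503 in both libraries summed. For the asRNA: members the average was 1.14 and for the lncRNA: members 1.86.

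The largest ratios belonged to members with few counts. lncRNA:CR43817 had 152 and 103 counts, a log2 ratio of 0.49 with a counting standard error of 0.18. lncRNA:CR45962, within Ten-m, had 100 and 132 counts (log2 ratio -0.48), asRNA:CR43933 had 159 and 113 (0.42), lncRNA:CR43423 had 164 and 118 (0.40), and lncRNA:CR43918 had 102 and 125 (-0.37). None of these 5 differed by more than 3 counting standard errors. The 3 members that did were lncRNA:CR40469 (log2 ratio 0.13), lncRNA:Hsromega (0.08) and asRNA:CR44029 (0.32, with 533 and 404 counts), which is 3 of 139, where 2.63% of all genes with 100 counts differed as much. With these 3 left out, the chi-square per degree of freedom was 1.27.

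**Figure D5:**
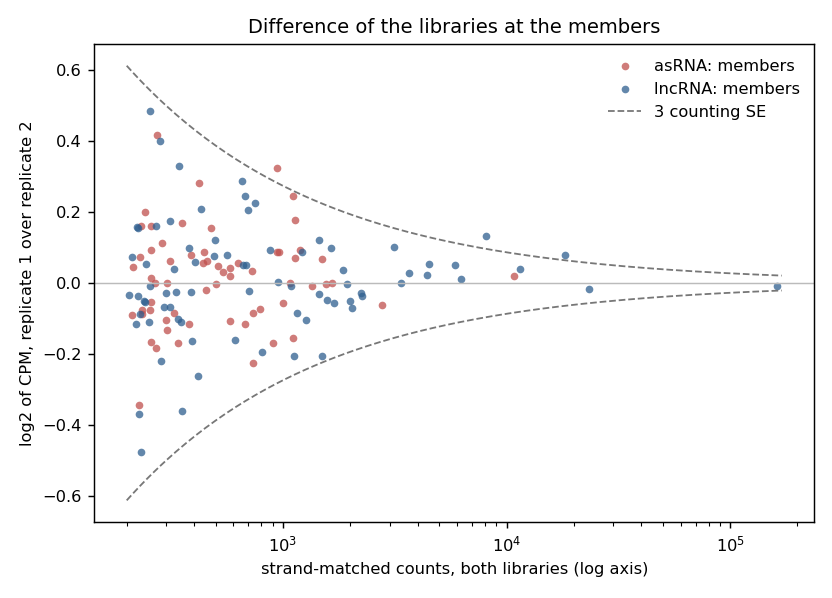
Log2 ratio of CPM, replicate 1 over replicate 2 (y axis), against strand-matched counts of both libraries summed (x axis, log), for asRNA: members in red and lncRNA: members in blue, with dashed curves at 3 counting standard errors for equal counts in the libraries. The spread narrows with the counts, and 3 members lie outside the curves.

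Several members lie inside a longer gene of the same strand, where unspliced reads of that gene would be counted as theirs. There are 11 of these, all lncRNA: genes, which is 7.91% of the members against 1.97% of all genes with 100 counts. Where same-strand exons are shared, pairs that touch exons of both genes are left out instead. This concerns 50.5% of the exonic bases of lncRNA:CR42491 in RpL22 and 27.0% of those of lncRNA:CR43900 in Cam. lncRNA:CR43900 had 128 and 117 counts inside Cam, the calmodulin gene, with 83849 and 84118. lncRNA:CR33963 had 121 and 103 counts inside Tis11, an mRNA decay factor, with 20998 and 20216. lncRNA:CR32218 had 202 and 179 counts inside Mi-2, a chromatin remodeler, with 14748 and 13985. By deposited TPM, lncRNA:CR34335, lncRNA:noe, lncRNA:CR43963 and lncRNA:CR43241 were above their host in both libraries, and the other 7 were below theirs. The deposited length sums all transcripts of a gene, and the order with exonic lengths was not examined. The margin was small for lncRNA:CR43963, with 10.2 and 9.80 TPM against 8.38 and 8.78 TPM for Smr. Host and member transcripts cannot be told apart by these counts.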

How the data were processed

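RNA-seq of 2 control libraries of Kc167 cells was used. The authors aligned paired-end reads to dm6 with STAR (2.7.1a, per the paper and the labels) and deposited raw counts per gene with TPM, and per-library counts per gene in 3 strand columns. The deposited counts are not normalized, and the deposited TPM was made by the authors from them; its length column equals the summed exons of all annotated transcripts for 138 of the 139 members, lncRNA:CR46064 (2473 bases deposited, 2652 annotated) being the exception. No value column was left unmapped (0). Read pairs not counted for a gene were 21.6% and 21.0% of all pairs and were left out of totals. They include pairs placed at several positions of the genome, which were 11.2% and 10.8% of all pairs. The rest were unmapped, on no gene or on several genes.

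Symbols, coordinates and exons were taken from Ensembl release 115 (BDGP6.54); 41 of the 7056 other well-counted genes had no annotated length here. Shares carry exact Clopper-Pearson intervals, which cover counting error only. Chi-square statistics were tested on simulated data. Scripts ran in Python 3.11.15 with scipy 1.17.1, pandas 2.3.3, matplotlib 3.10.9 and numpy 2.4.6.

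The members and lists were chosen with earlier results of these data known. Genes were named by rule: the 12 with highest TPM, the 5 with the highest opposite-strand share and the 5 with the largest difference between libraries. The rule also took the 4 on each side of the count minimum, all members with a name, and the lists of genes with a known role and snoRNA hosts. Others are marked in the text or follow from their position beside a member. With 1 condition no group test was possible. Sequences were not analysed here.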

Additional observations from a re-analysis of the deposited data

How the results depend on the processing

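No paired analysis was possible because the design holds 1 condition and no second group to pair. The number of members was 139, and 412 with a minimum of 10 counts. It was 142 to 152 with 1 library left out. The share of gene counts was 0.538%, against 0.478% with unstranded counts, 0.570% at a minimum of 10 counts, 0.289% without lncRNA:CR42862 (chosen after the data were seen) and 0.537% to 0.540% with 1 library left out. The median TPM was 18.9, against 14.5 with each exonic base counted 1 time, 13.9 with the longest transcript, 8.62 from unstranded counts, 5.67 at a minimum of 10 counts and 18.1 to 19.2 with 1 library left out. Pseudocounts of 1 and 0.1 left it at 18.9. The median opposite-strand share was 8.20%, against 8.93% relative to strand-matched reads, 24.3% at a minimum of 10 counts, 7.40% without the 5 members at the wrong-strand level (chosen after the data were seen) and 7.80% to 8.13% with 1 library left out. The 30 members mainly read on the opposite strand became 158 at a minimum of 10 counts, 25 without those 5, and stayed at 30 in either library alone. Of the 31 named members, 9 had a higher and 21 a lower TPM with exonic length, and 14 a higher and 10 a lower one from unstranded counts. These shifts follow from the other lengths, counts or genes that each alternative uses. For a member with 100 counts the counting error limits what 2 libraries can show, and neither the length used for TPM nor poly(A) selection can be undone by replication.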
